A study of Arabidopsis with 12 samples.

Results

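The comparison described here sets untreated *aph-1* seedlings against untreated wild-type (Col-0) seedlings of *Arabidopsis thaliana*, across the genes of 1 deposited expression table. The genes compared are those with at least 1 FPKM in either untreated group, FPKM being the fragment count of a gene scaled to its length and to the fragments mapped. There were 19788 such genes among the 33559 of the table. At that limit, AT4G23070 was just included at 0.742 FPKM in *aph-1* and 1.00 FPKM in the wild type. AT2G35600 was just left out at 0.999 FPKM in *aph-1* and 0.997 FPKM in the wild type. The difference between genotypes is given as a log2 ratio, *aph-1* over wild type, with 0.1 FPKM added to both values. A positive ratio means a higher level in *aph-1*, and folds of single genes are given without the added value.

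All groups were whole seedlings 14 days old, grown on half-strength medium with sucrose, with 3 libraries per group. Untreated *aph-1* was set against untreated wild type, and *aph-1* with ABA (50 micromolar, 6 h) was set against wild type with ABA. The mutant is a single T-DNA line with the insertion in the promoter of *APH*, from which a transcript fusing T-DNA and *APH* is made, so a value over the whole gene does not check the genotype of a library. The table has 1 pooled value per group and no value per library. The spread between libraries is therefore unknown, there is neither an SD nor a p-value, and every difference below is a description of these pooled values. The labels do not say whether the 3 libraries came from separate cultures.

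ABA is the hormone through which plants respond to drought and salt and hold seeds dormant. It binds PYR/PYL receptors, which then block the clade A PP2C phosphatases and so free the SnRK2 kinases that switch on stress genes. *APH* encodes a low molecular weight protein tyrosine phosphatase, an enzyme that removes phosphate from tyrosine residues of proteins. Differences between untreated genotypes concern the ground state of the seedling, before the hormone is added.

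The sequencing depth behind each value is unknown, so no counting interval is given. Summed over all genes, the values came to 1027611 in untreated *aph-1* and 1093168 in untreated wild type. Of 3899 genes described as transposable element genes, 881 were above 0 in untreated *aph-1* and 616 in untreated wild type, against 564 in *aph-1* and 583 in wild type with ABA. Many of these values were near the floor, with 446 in untreated *aph-1* and 282 in untreated wild type under 0.02 FPKM times gene length in kb. The 82 transposable element genes with at least 1 FPKM in either untreated group had a median log2 ratio of 0.06. The seedling label was checked against organ markers. Root genes such as *CASP1*, at 27.1 FPKM in *aph-1* and 29.5 FPKM in the wild type, and shoot genes such as *RCA*, at 1752 and 1338 FPKM in the same order of groups, were well above 0. Of 4 flower and seed genes, *AP1*, *CRA1* and *LEC1* were under 0.1 FPKM in both untreated groups, and *AG* was at 0.385 FPKM in *aph-1* and 0.407 FPKM in the wild type.

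The genotypes were close to each other at most genes. The median log2 ratio over the 19788 genes was −0.05, with quartiles of −0.22 and 0.15. By 1.5-fold or more, 278 genes were higher in *aph-1* (1.4% of all compared) and 683 were lower (3.45%). At least 2-fold, 41 genes were higher (0.207%) and 167 lower (0.844%). With ABA, in libraries that the untreated comparison does not use, 286 of the same genes were at least 1.5-fold higher in *aph-1* (1.45%) and 237 lower (1.2%). The excess of lower genes without ABA depended on the scaling. At 1.5-fold there were 403 higher and 551 lower genes after centring on the median, 537 and 464 with all groups scaled to the same sum, and 353 and 323 after a correction for gene length. At 2-fold that correction gave 49 higher and 109 lower genes.

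A small number of genes differed in the same direction in both conditions. The untreated and ABA-treated comparisons share no library, so these genes were measured in separate libraries. Of 239 genes at least 1.5-fold higher in untreated *aph-1* among those with at least 1 FPKM in either ABA group as well, 28 (11.7%) were also at least 1.5-fold higher with ABA, where 1.13% of the 18920 genes were. They made up 13.1% of the genes higher with ABA. Of 574 lower genes, 70 (12.2%) were also lower with ABA, where 0.951% of the genes were, and they made up 38.9% of the genes lower with ABA. Across these 18920 genes the correlation of the untreated with the ABA-treated log2 ratio was 0.17 (Pearson) and 0.25 (Spearman), a description over genes, which are not independent replicates.

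The largest of these shared differences was that of AT2G01422, a gene with no description in the table. It was at 89.98 FPKM in untreated *aph-1* against 1.13 FPKM in untreated wild type, and at 79.8 FPKM in ABA-treated *aph-1* against 0.373 FPKM in ABA-treated wild type. AT3G58550, which belongs to the lipid-transfer proteins, a superfamily of small secreted proteins, was at 47.0 FPKM in untreated *aph-1* and 1.62 FPKM in untreated wild type. With ABA it was at 70.4 FPKM in *aph-1* and 0.596 FPKM in the wild type. Both genes were thus near the limit of inclusion in the wild type and clearly expressed in the mutant line in either condition. The gene next to it, AT3G58540, chosen after its values were seen, had untreated and ABA-treated folds of 1.53 and 1.45 in favour of *aph-1*.

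AT3G57780, which has no description in the table, was at 12.4 FPKM in *aph-1* and 1.0997 FPKM in the wild type without ABA, and at 17.8 and 1.81 FPKM in *aph-1* and wild type with ABA. *CLE14* (AT1G63245), which encodes a small peptide signal, was at 5.42 FPKM in untreated *aph-1* and 1.37 FPKM in untreated wild type, and it was 2.52-fold higher with ABA. *HTR11* (AT5G65350), a histone H3 gene, was 2.18-fold higher without ABA and 2.63-fold higher with ABA. A few short genes, among them the peptide gene *CLE1* (AT1G73165) at 1.06 FPKM in untreated *aph-1* and 1.89 FPKM in ABA-treated *aph-1*, were listed at 0 in both wild-type groups, so no fold can be given. AT4G36791 and AT1G62886 were listed in the same way.

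Genes that are abundant in both genotypes also held a constant difference. AT1G09640, the gamma subunit of elongation factor EF1B, which helps to load the ribosome with tRNAs, was at 201 FPKM in untreated *aph-1* against 109 FPKM in untreated wild type. With ABA it was at 206 FPKM in *aph-1* against 111 FPKM in the wild type. The 2 folds were 1.85 and 1.86. This gene was the only translation factor of 64 at least 1.5-fold higher in untreated *aph-1*, a share near the 1.4% of all genes. The protein kinase gene AT3G44610, which neighbours *APH*, was 2.16-fold higher in both conditions, at 12.4 FPKM in untreated *aph-1* and 5.74 FPKM in untreated wild type. *APH* (AT3G44620) itself was at 83.6 FPKM in untreated *aph-1* and 95.9 FPKM in untreated wild type, a log2 ratio of −0.20. Of the other genes on either side, the disease resistance gene AT3G44630 had a log2 ratio of 0.68, the cyclophilin gene *CYP71* (AT3G44600) one of 0.09 and the ribosomal protein gene AT3G44590 one of −0.10. The 4 remaining genes of the 8 nearest were under 0.1 FPKM in all groups.

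**Figure D1:**
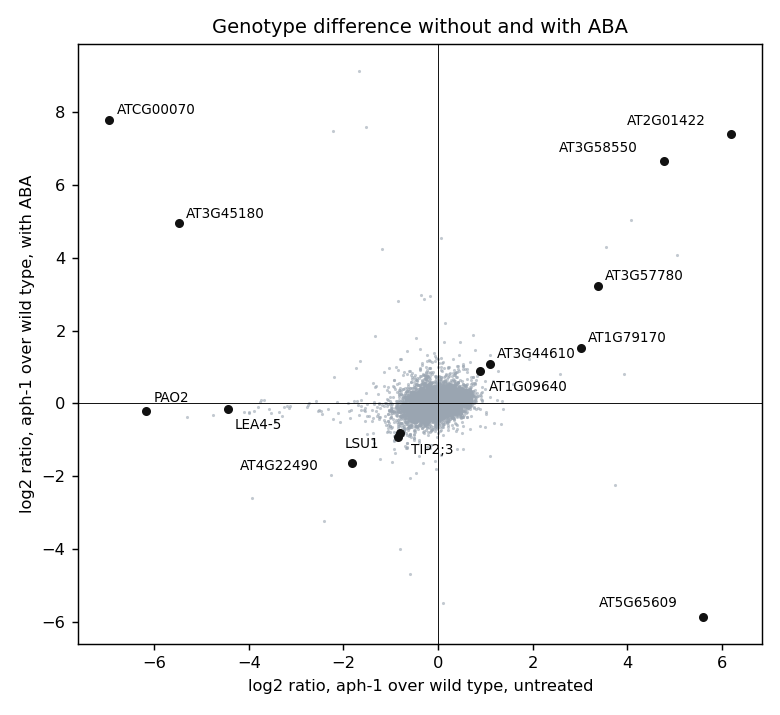
Log2 ratio of *aph-1* over wild type without ABA (horizontal axis) and with ABA (vertical axis) for the 18920 genes with at least 1 FPKM in either group of both conditions, 1 point per gene. Labelled genes at the upper right, such as AT2G01422 with 6.20 without ABA and 7.40 with ABA, differed in the same direction in both conditions, and *PAO2* and *LEA4-5* lie far to the left and near 0 on the vertical axis.

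Genes lower in *aph-1* in both conditions included a second lipid-transfer protein gene, AT4G22490. It was at 61.4 FPKM in untreated *aph-1* against 216 FPKM in untreated wild type, and at 28.0 against 86.6 FPKM in *aph-1* and wild type with ABA. The glycine-rich protein gene AT2G05510, chosen after its values were seen, was among the most abundant, with 829 FPKM in untreated *aph-1* and 1535 FPKM in untreated wild type. With ABA it was at 1317 FPKM in *aph-1* and 2319 FPKM in the wild type. *TIP2;3* (AT5G47450), a root aquaporin of the vacuolar membrane, was at 11.99 FPKM in *aph-1* and 20.9 FPKM in the wild type without ABA, and at 9.32 and 16.3 FPKM in *aph-1* and wild type with ABA. The other 5 root markers had untreated log2 ratios between −0.25 and 0.41. The RNA gene AT4G04223 was 2.57-fold lower in untreated *aph-1* and 2.14-fold lower with ABA. *MPC* (AT3G19350) was at 1.23 FPKM in untreated *aph-1* and 2.52 FPKM in untreated wild type, and it was 3.16-fold lower with ABA.

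The genes of sulfur starvation formed a coordinated group that was lower in both conditions. They include the *LSU* genes, small proteins that accumulate when sulfate is short, and the reductases and transporters of sulfate uptake. All 13 listed genes were lower in untreated *aph-1* (median log2 ratio −0.33), where 56.5% of all compared genes were lower. With ABA, 12 of the 13 were lower, with a median of −0.50, where 52.3% of all compared genes were lower. At least 1.5-fold lower were 5 genes without ABA, against 3.45% of all genes, and 4 with ABA, against 1.2%.

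Without ABA, the 4 *LSU* genes had the largest differences of the list. *LSU1* (AT3G49580) was at 312 FPKM in untreated *aph-1* and 556 FPKM in untreated wild type, and at 250 and 472 FPKM in *aph-1* and wild type with ABA. *LSU2* (AT5G24660) was at 433 FPKM in untreated *aph-1* and 716 FPKM in untreated wild type. *LSU3* (AT3G49570) was at 161 FPKM in untreated *aph-1* and 285 FPKM in untreated wild type, and *LSU4* (AT5G24655) had a log2 ratio of −0.68. The ChaC-like gene AT5G26220, whose product breaks down glutathione, was at 139 FPKM in *aph-1* and 213 FPKM in the wild type without ABA, and at 43.7 and 82.1 FPKM in *aph-1* and wild type with ABA. The adenosine phosphosulfate reductase gene *APR3* (AT4G21990) was closer, at 219 FPKM in untreated *aph-1* and 274 FPKM in untreated wild type. *BGLU28* (AT2G44460), a beta-glucosidase of the same list, was only 1.12-fold lower in untreated *aph-1* and 2.33-fold lower with ABA. The *LSU* genes are close copies of one another, and the sources do not say how the counting divided reads among copies.

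**Figure D2:**
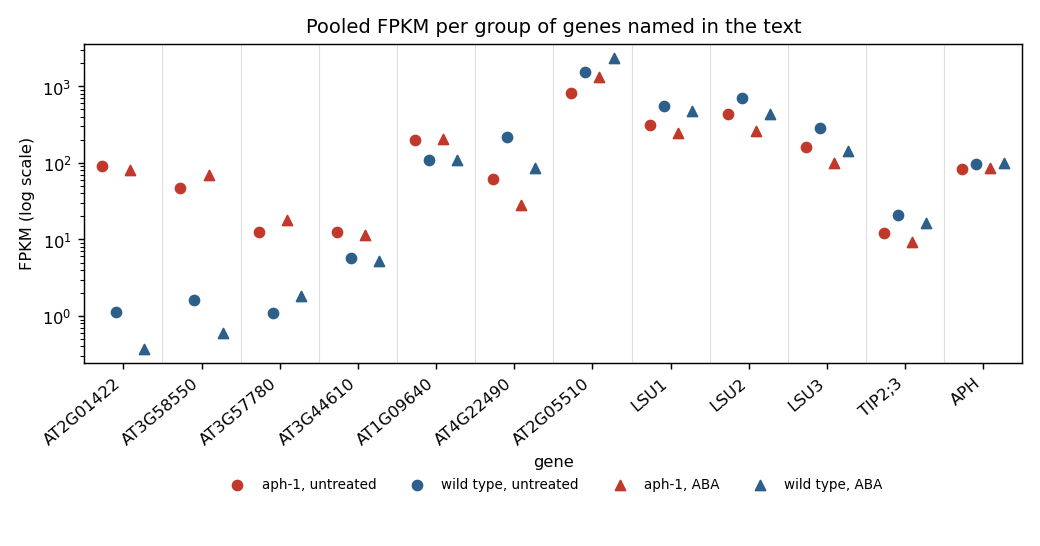
Pooled FPKM per group (log scale) of genes named in the text, with *aph-1* in red left of wild type in blue, untreated as circles and ABA-treated as triangles. *LSU1*, *LSU2* and *LSU3* lie lower in *aph-1* in both conditions, the 5 genes at the left lie higher in *aph-1*, and *APH* at the right is nearly level, with 83.6 FPKM in untreated *aph-1* and 95.9 FPKM in untreated wild type.

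Genes of carbon fixation in the chloroplast leaned the other way. Of 18 genes for Rubisco and the Calvin cycle, 13 were higher in untreated *aph-1* (median log2 ratio 0.28), where 43.5% of all compared genes were higher. With ABA all 18 were higher, with a median of 0.25, where 47.5% of all compared genes were higher. None of the 18 reached 1.5-fold without ABA. *RBCS1A* (AT1G67090), a small subunit of Rubisco, was at 12404 FPKM in untreated *aph-1* and 9613 FPKM in untreated wild type, and at 6025 and 3952 FPKM in *aph-1* and wild type with ABA. *RCA* (AT2G39730), which keeps Rubisco active, was 1.31-fold higher without ABA and 1.21-fold higher with ABA. The aldolase gene *FBA2* (AT4G38970) was 1.38-fold higher in untreated *aph-1*. The transketolase gene AT3G60750 came closest to 1.5-fold, at 617 FPKM in untreated *aph-1* and 411 FPKM in untreated wild type. The 5 lower members were led by *CP12-2* (AT3G62410), a regulator that binds Calvin cycle enzymes, with a log2 ratio of −0.39. The *RBCS* genes are near-identical copies, so the division of their reads is uncertain. Of the other shoot markers, *GLK1*, a regulator of chloroplast development, had a log2 ratio of −0.14 and the guard cell channel *KAT1* one of −0.20.

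Photosystem and antenna genes of the nucleus were divided, with 23 of 59 higher in untreated *aph-1*, a share near the 43.5% of all compared genes. With ABA 52 of the 59 were higher, where 47.5% of all compared genes were. The antenna genes *CAB1*, *CAB2* and *CAB3*, again near-identical copies, were each between 1.25-fold and 1.29-fold higher in untreated *aph-1*. *PSBR* (AT1G79040), a small protein of photosystem II, was at 7555 FPKM in untreated *aph-1* and 9408 FPKM in untreated wild type. The nitrate reductase genes *NIA1* (AT1G77760) and *NIA2* (AT1G37130), chosen after their values were seen, were 1.25-fold and 1.30-fold higher in untreated *aph-1* and 1.60-fold and 1.65-fold higher with ABA. Whole seedlings mix organs, and a lower share of a cell type cannot be told apart from less RNA per cell.

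Most of the chloroplast's own genes had lower values. Of 60 genes of the chloroplast genome, 49 were lower in untreated *aph-1* (median log2 ratio −0.32), and 54 were lower with ABA, with a median of −0.51, where 56.5% and 52.3% of all compared genes were lower. At least 1.5-fold lower were 21 of the 60 without ABA, against 3.45% of all genes. Of the 60 genes, all 9 compared subunits of the NDH complex, which returns electrons to the photosynthetic chain, were lower in both conditions. Their medians were −0.70 without ABA and −0.74 with ABA. At least 1.5-fold lower were 7 of the 9 without ABA and 5 with ABA, against 3.45% and 1.2% of all genes. This subset was chosen after values were seen. ATCG01070, the chain 4L of that complex, was at 1.08 FPKM in untreated *aph-1* and 2.64 FPKM in untreated wild type. ATCG00640, the ribosomal protein L33, was at 10.2 FPKM in untreated *aph-1* and 26.3 FPKM in untreated wild type, and at 6.59 and 13.1 FPKM in *aph-1* and wild type with ABA. The more abundant ATCG00490, the large subunit of Rubisco, was at 35.4 FPKM in untreated *aph-1* and 31.1 FPKM in untreated wild type. The nuclear *RBCS1A* was at 12404 and 9613 FPKM in the same order of groups. ATCG00070, listed at 0 in at least 1 group, had log2 ratios of −6.95 without ABA and 7.80 with ABA. How fully the libraries captured chloroplast RNA was not tested, and no reading relative to gene length was possible for these genes. Of 11 compared genes of the mitochondrial genome, 7 were lower without ABA, with a median of −0.16.

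The small shifts of gene classes in untreated seedlings went with gene length. Length here is the span of a gene, introns included, in the RefSeq table of assembly TAIR10.1, and it was known for 19669 of the genes compared. Among the 10455 genes that did not respond to ABA (log2 response within 0.5 of 0, as the mean of both genotypes), those of known length were divided into 10 equal bins of length. The shortest bin, up to 1334 bases, had a median log2 ratio of −0.24, and 20.2% of its genes were higher in *aph-1*. The longest bin, from 4900 bases, had a median of 0.24, and 91.8% of its genes were higher. The medians went up through each bin in between. With ABA these 2 bins had medians of −0.03 and −0.06, so no such gradient was seen between the ABA-treated genotypes. In these genes, the correlation of length with the untreated log2 ratio was 0.51 (Spearman) and 0.41 (Pearson), against −0.07 and −0.09 with ABA. All compared genes were also divided into 5 bins of mean abundance and each of these into 3 bins of length. The shortest genes of each abundance bin had a median between −0.24 and −0.15 and the longest one between 0.02 and 0.18. What lay behind the gradient was not tested.

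**Figure D3:**
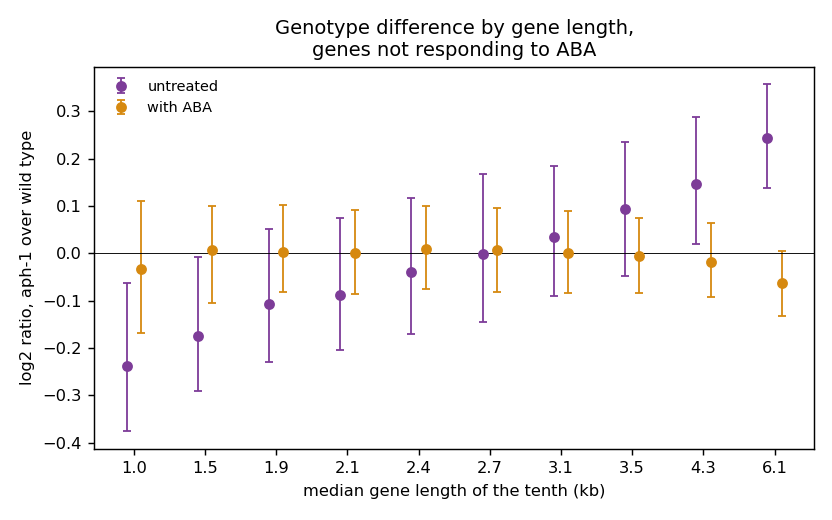
Median log2 ratio of *aph-1* over wild type (points) with quartiles (bars) for genes that did not respond to ABA, in 10 bins of gene length with the median length of each in kb on the horizontal axis, untreated in purple and with ABA in orange. The untreated medians climb from −0.24 in the shortest bin to 0.24 in the longest, and those with ABA stay between −0.06 and 0.01.

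Each class was therefore read in 2 ways, as deposited and relative to genes of like length. For the second reading, the running median over 501 genes of neighbouring length was taken off each log2 ratio, a step added after the values were seen. Over 65 gene lists with at least 5 members of known length, the median length and the median log2 ratio had a Spearman rho of 0.54 before and 0.11 after that step. Before it, 45 lists lay at least 0.1 from the median of all genes. Of these, 31 lay at least 0.1 from 0 after it.

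Several classes lost or turned their shift in this way. *SAUR* genes, short genes induced by auxin, had 50 of 60 members lower in untreated *aph-1* and a median of −0.25, which became 0.06 relative to genes of like length. Histone genes had 39 of 42 members lower and a median of −0.19, which became 0.06. For both lists the share of all compared genes that were lower was 56.5%. Ribosomal proteins outside the organelles had a median of −0.09 over 250 members and 0.09 relative to genes of like length, and one of 0.20 with ABA. Long genes did the reverse. NLR immune receptors, the intracellular sensors of pathogens, had a median of 0.13 over 104 members, which became −0.01, and ABC transporters one of 0.15 over 58 members, which became −0.05.

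A second set of classes kept a higher level in untreated *aph-1* in both readings. The second reading used the span with introns, and the length of transcripts without introns was not corrected for. Most of the classes named here act in the making and processing of RNA and protein. DEAD-box RNA helicases, which unwind RNA in ribosome assembly and splicing, were higher for 51 of 52 members, with a median of 0.33, and 0.18 relative to genes of like length. Where 43.5% of all compared genes were higher, 153 of 213 pentatricopeptide repeat proteins, which bind and process the RNA of chloroplasts and mitochondria, were higher, with a median of 0.18 and then 0.20. Aminoacyl-tRNA synthetases, which charge tRNAs, had 31 of 38 members higher, with medians of 0.28 and 0.17, and translation factors had 47 of 64 higher, with medians of 0.16 and 0.15. With ABA the medians of these 4 lists lay between −0.03 and 0.08. The differences were small, with 4 helicases, 6 pentatricopeptide repeat proteins and 2 synthetases at least 1.5-fold higher, where 1.4% of all genes were.

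Values of single members give the scale. The helicase gene *emb1138* (AT5G26742) was at 177 FPKM in untreated *aph-1* and 117 FPKM in untreated wild type, and at 87.0 and 73.6 FPKM in *aph-1* and wild type with ABA. AT4G16630, another helicase gene, was at 13.0 FPKM in untreated *aph-1* and 7.82 FPKM in untreated wild type. *OVA1* (AT3G55400), an aminoacyl-tRNA synthetase of the organelles, was at 35.3 FPKM in untreated *aph-1* and 21.1 FPKM in untreated wild type. These members were 1.51-fold, 1.66-fold and 1.67-fold higher without ABA and 1.18-fold, 1.01-fold and 1.21-fold higher with ABA. Tubulin and FtsZ genes, building blocks of the cytoskeleton and of the plastid division ring, were higher for 13 of 15 members in both conditions. Their medians were 0.18 without ABA and 0.11 with ABA, where 43.5% and 47.5% of all compared genes were higher. *TUB7* (AT2G29550) was 1.47-fold higher without ABA, and at 132 and 119 FPKM in *aph-1* and wild type with ABA.

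Chaperonins, the barrel-shaped complexes in which proteins fold, were chosen as a list after values were seen. Of 23 members, 17 were higher in untreated *aph-1*, 5 of them at least 1.5-fold, with a median of 0.18, where 43.5% of all genes were higher and 1.4% at least 1.5-fold higher. With ABA, 20 were higher, with a median of 0.19, where 47.5% of all compared genes were higher. *Cpn60beta2* (AT3G13470) of the chloroplast was at 103 FPKM in untreated *aph-1* and 51.3 FPKM in untreated wild type, and at 52.0 and 39.2 FPKM in *aph-1* and wild type with ABA. *CPN60A* (AT2G28000), its partner subunit, was at 306 FPKM in untreated *aph-1* and 177 FPKM in untreated wild type. The mitochondrial *HSP60-2* (AT2G33210) was at 39.4 FPKM in untreated *aph-1* and 20.9 FPKM in untreated wild type, and 1.14-fold higher with ABA. Other organelle genes of like difference, also picked by their values, were the mitochondrial protease *LON1* (AT5G26860), 1.73-fold higher, and the RNA editing factors *MORF1* (AT4G20020) and AT3G15000, 1.54-fold and 1.64-fold higher. Chosen in the same way, the glycine decarboxylase gene *GLDP1* (AT4G33010), of photorespiration, was at 223 FPKM in untreated *aph-1* and 130 FPKM in untreated wild type. The likewise chosen carbamoyl phosphate synthetase genes *CARA* (AT3G27740) and *CARB* (AT1G29900), whose 2 subunits form the enzyme that feeds pyrimidine and arginine synthesis, were 1.63-fold and 1.70-fold higher without ABA and 1.25-fold and 1.04-fold higher with ABA.

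**Figure D4:**
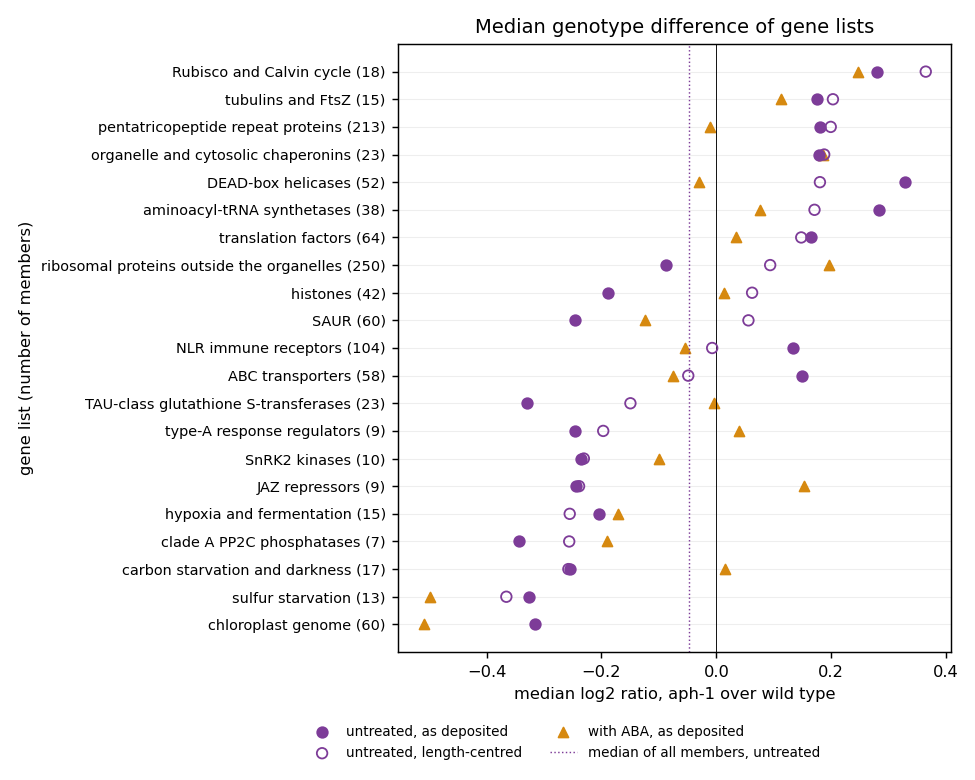
Median log2 ratio of *aph-1* over wild type for 21 gene lists, with the number of members in brackets, untreated as deposited (filled circles), untreated relative to genes of like length (open circles) and with ABA as deposited (triangles). *SAUR* and histone genes cross 0 between filled and open circles, the sulfur starvation genes stay below −0.3 in all readings, and the chloroplast genome has no open circle because its gene lengths were not in the table used.

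Other classes had a median below 0 in untreated *aph-1* in both readings. All 9 *JAZ* repressors of the jasmonate pathway were lower, with a median of −0.24, where 56.5% of all compared genes were lower. Relative to genes of like length the median was also −0.24, and 7 of the 9 were lower. With ABA, 6 of the 9 were higher, with a median of 0.15, where 47.5% of all compared genes were higher. *JAZ12* (AT5G20900) was at 81.4 FPKM in untreated *aph-1* and 111 FPKM in untreated wild type, and *JAZ5* (AT1G17380) was 1.59-fold lower. Of 9 type-A response regulators, early targets and brakes of cytokinin, 8 were lower, with a median of −0.25 and then −0.20, against 0.04 with ABA. *ARR3* (AT1G59940) was at 7.09 FPKM in untreated *aph-1* and 10.02 FPKM in untreated wild type. None of these 9 reached 1.5-fold.

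Genes switched on by darkness and sugar shortage had a median of −0.25 over 17 members and −0.26 relative to genes of like length. Of the 17, 11 were lower, a share near the 56.5% of all genes. *SEN1* (AT4G35770), a gene of senescence and darkness, was at 21.025 FPKM in untreated *aph-1* and 42.2 FPKM in untreated wild type, and at 40.6 and 42.7 FPKM in *aph-1* and wild type with ABA. Of 15 genes of low oxygen and fermentation, 12 were lower, with a median of −0.20 and then −0.26. The median log2 response of this list to ABA was 1.24. All genes raised by 1 to 3 had an untreated median of −0.19, and −0.12 relative to genes of like length. In the low oxygen list, *ADH1* (AT1G77120), the alcohol dehydrogenase, was at 32.1 FPKM in untreated *aph-1* and 49.7 FPKM in untreated wild type. Flowering regulators had a median of −0.22 over 15 members, and the 10 that were lower were again a share near that of all genes. *SVP* (AT2G22540), a repressor of flowering, was at 46.3 FPKM in untreated *aph-1* and 56.7 FPKM in untreated wild type. *FLC* (AT5G10140), another repressor, went the other way at 3.07 FPKM in untreated *aph-1* and 2.36 FPKM in untreated wild type.

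Glutathione S-transferases of the TAU class, which attach glutathione to toxic compounds, were lower for 19 of 23 members, 5 of them at least 1.5-fold, with a median of −0.33 and −0.15 relative to genes of like length. Of all genes, 56.5% were lower and 3.45% at least 1.5-fold lower. This list was also chosen after values were seen. With ABA its median was 0.00. The median log2 response of this list to ABA was 0.97, and all genes raised by 0.5 to 1 had an untreated median of −0.05. In the tandem cluster on chromosome 2, *GSTU4* (AT2G29460) was at 11.4 FPKM in untreated *aph-1* and 19.1 FPKM in untreated wild type, and *GSTU6* (AT2G29440) at 30.5 and 48.6 FPKM in *aph-1* and wild type. *GSTU5* (AT2G29450), the most abundant of the cluster, was at 260 FPKM in untreated *aph-1* and 344 FPKM in untreated wild type, and at 711 and 734 FPKM in *aph-1* and wild type with ABA. *GSTU2* (AT2G29480) of the same cluster was not lower, at 2.99 FPKM in untreated *aph-1* and 2.65 FPKM in untreated wild type. The phytosulfokine precursor genes *PSK1* (AT1G13590) and *PSK5* (AT5G65870), which encode growth peptides and were also picked by their values, were 1.99-fold and 1.57-fold lower in untreated *aph-1*. With ABA the genotypes were nearly level, at 11.3 FPKM in *aph-1* and 11.1 FPKM in the wild type for *PSK1* and 61.6 and 61.9 FPKM in the same order for *PSK5*.

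Root hair genes had a median of −0.21 over 21 members in untreated *aph-1*, and −0.11 relative to genes of like length. Without ABA 15 of the 21 were lower, where 56.5% of all compared genes were lower. With ABA the median was 0.23 and 17 were higher, where 47.5% of all compared genes were higher. *RSL4* (AT1G27740), a transcription factor that drives hair growth, was at 9.98 FPKM in untreated *aph-1* and 14.98 FPKM in untreated wild type, and at 4.13 and 4.02 FPKM in *aph-1* and wild type with ABA. *RHS13* (AT4G02270) was at 133 FPKM in untreated *aph-1* and 199 FPKM in untreated wild type, and at 66.4 and 49.2 FPKM in *aph-1* and wild type with ABA. The root hair marker *EXPA7* (AT1G12560) was level without ABA, at 21.8 FPKM in *aph-1* and 21.5 FPKM in the wild type.

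The components of the ABA pathway itself were compared as well. All 10 *SnRK2* kinases were lower in untreated *aph-1*, where 56.5% of all compared genes were lower. Their median was −0.24, and −0.23 relative to genes of like length. With ABA, 9 of 10 were lower, with a median of −0.10, where 52.3% of all compared genes were lower. *SNRK2.2* (AT3G50500), a central kinase of the response, was at 127 FPKM in untreated *aph-1* and 150 FPKM in untreated wild type. Among 9 compared *PYR/PYL* receptors, 6 were lower, a share near the 56.5% of all genes, with a median of −0.31 and then −0.14. *PYR1* (AT4G17870) was at 195 FPKM in untreated *aph-1* and 261 FPKM in untreated wild type. Of 7 compared clade A phosphatases, 6 were lower, with a median of −0.34. That median became 0.11 when 1% of each gene's ABA-treated wild-type level was subtracted from its untreated wild-type value. This step is no check of the shift, because ABA raised the list by a median of 4.82 on the log2 scale. For *HAI2*, at 1.05 FPKM in untreated wild type and 147 FPKM in ABA-treated wild type, it removed more than the whole untreated value. Among these phosphatases, *ABI1* (AT4G26080) was at 43.9 FPKM in untreated *aph-1* and 47.5 FPKM in untreated wild type.

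Grouped by their response to ABA, the untreated genotypes differed least, by the median, in genes that did not respond and most in those most strongly induced. The 10455 genes that did not respond had a median of 0.00, with 149 at least 1.5-fold higher (1.43%) and 156 lower (1.49%). This balance also depended on the scaling, with 228 higher and 122 lower after centring on the median, 283 and 97 with all groups scaled to the same sum, and 177 and 59 relative to genes of like length. The median was −0.12 for the 2126 genes that ABA lowered by 1 to 3 on the log2 scale and −0.24 for the 227 it lowered by more than 3. On the induced side it was −0.19 for 1673 genes raised by 1 to 3, −0.45 for 239 raised by 3 to 5 and −1.77 for 67 raised by more than 5. In the last class all 67 genes were lower in untreated *aph-1* and 54 were at least 2-fold lower. Of all compared genes, 56.5% were lower and 0.844% at least 2-fold lower. With ABA the same 67 genes had a median of −0.16. The ABA response was computed from the same untreated values, so this grouping is a description.

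For the 67 most induced genes, the gap between genotypes was a small part of the induced level. The untreated wild-type value minus the untreated *aph-1* value had a median of 1.11% of the ABA-treated wild-type value, with quartiles of 0.858% and 1.47%. The median was 2.302% (quartiles 1.16% and 3.25%) in the genes raised by 3 to 5 and 3.75% (quartiles 0.161% and 7.46%) in those raised by 1 to 3. The untreated level was 0.416% of the ABA-treated one in *aph-1* and 1.73% in the wild type, as medians. What lay behind the gap was not tested.

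**Figure D5:**
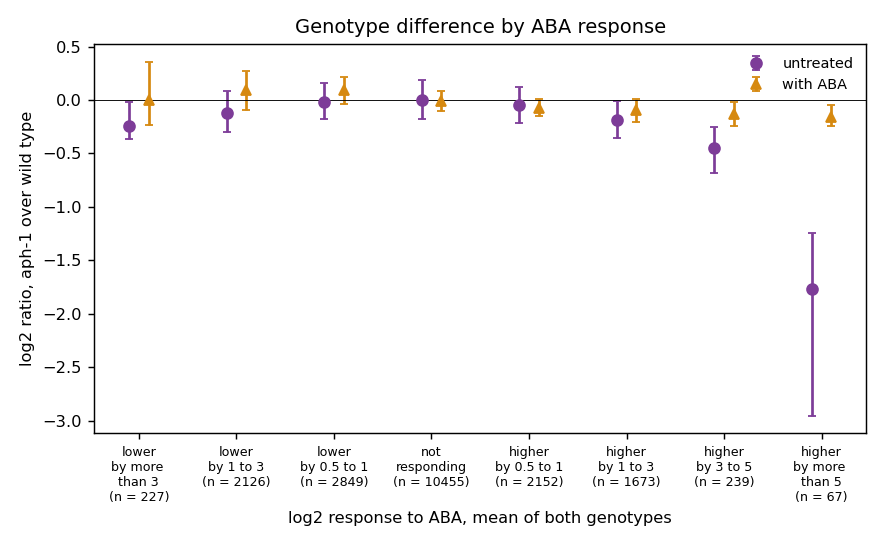
Median log2 ratio of *aph-1* over wild type (points) with quartiles (bars) in 8 classes of response to ABA, from strongly lowered at the left to strongly induced at the right, with the number of genes in brackets, untreated as circles and with ABA as triangles. The untreated median is 0.00 in the genes that did not respond and −1.77 in the 67 most induced genes, where the median with ABA is −0.16.

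Among genes whose mean log2 response to ABA over both genotypes was within 0.5 of 0, those with the largest differences were few and mostly at low levels. Such a mean can hide a response in 1 genotype or opposite responses in the 2. AT1G51035 below fell with ABA in the wild type and rose in *aph-1*. *dNK* (AT1G72040), a kinase that salvages deoxynucleosides for DNA, was at 28.5 FPKM in untreated *aph-1* against 13.3 FPKM in untreated wild type, and at 18.7 and 16.5 FPKM in *aph-1* and wild type with ABA. AT5G14580, described as a polyribonucleotide nucleotidyltransferase, an RNA-degrading enzyme, was at 4.68 FPKM in untreated *aph-1* and 1.91 FPKM in untreated wild type, and 1.06-fold higher with ABA. The peptide gene *RGF5* (AT5G51451) was at 1.08 FPKM in untreated *aph-1* and 0.421 FPKM in untreated wild type, and at 0.673 and 1.02 FPKM in *aph-1* and wild type with ABA. On the lower side, AT1G51035, which has no description, was at 2.79 FPKM in untreated *aph-1* and 8.85 FPKM in untreated wild type, and at 4.27 and 4.47 FPKM in *aph-1* and wild type with ABA. AT3G27630 was 3.41-fold lower and the dirigent-like gene AT5G42655 2.41-fold lower in untreated *aph-1*. The Stig1-family gene AT4G26880 was 4.75-fold lower without ABA and 1.19-fold higher with ABA.

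The largest log2 ratios of all rested on values of 0. Of the genes compared, 22 were listed at 0 in untreated *aph-1* alone and 14 at 0 in untreated wild type alone, and 29 of the 32 with a known length were under 1000 bases. AT5G18661 was listed at 0 in untreated *aph-1* and at 39.2 FPKM in untreated wild type, and the small nuclear RNA gene *U12* (AT1G61275) at 0 and 27.3 FPKM in *aph-1* and wild type. AT1G53543 was at 62.8 FPKM in untreated *aph-1* and at 0 in untreated wild type. All 3 were at 0 in both ABA groups. Such values may reflect failed estimates as well as absence, so no fold is given for them. *PAO2* (AT2G43020), a polyamine oxidase gene of 3.13 kb, stood apart from these short genes. It was at 0.0760 FPKM in untreated *aph-1* and 12.6 FPKM in untreated wild type, and at 4.49 and 5.24 FPKM in *aph-1* and wild type with ABA.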

How the data were processed

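The authors deposited 1 table with a single FPKM value per gene and group, pooled over 3 libraries by a step the sources do not describe. Per the labels and methods, seedling RNA was sequenced from directional libraries, and reads were trimmed, aligned to TAIR10 with HISAT and counted with HTSeq. The unit was taken from the column names, and a sheet label names Cuffdiff as well. The authors' own columns of ratios and calls were not used.

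Log2 ratios were computed with Python 3.11.15, numpy 2.4.6, pandas 2.3.3 and scipy 1.17.1 after adding 0.1 FPKM, for genes with at least 1 FPKM in either untreated group. Steps were tested on simulated data. With 1 value per group, a gene was called by its fold of 1.5 or 2. Gene lengths and symbols came from the RefSeq table of TAIR10.1, which held 32815 of 33559 identifiers.

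Named genes were *APH* with 4 genes on each side, the 12 largest differences in each direction, 15 in each direction among genes not responding to ABA, 10 in each direction shared by both conditions, and in each list described the 4 most changed and 3 most abundant members. Marker genes and genes named in the paper were added, and others are marked as chosen by value. The 65 lists, which matched 383 of 418 symbols sought beside searches of descriptions, and the genes compared were chosen with earlier results of these data known. A further 3 lists and the length correction were added after values were seen. Alternatives were other added values, filters, scalings, limits and folds.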

Additional observations from a re-analysis of the deposited data

Results flagged for a closer look

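Of the genes named, 6 differed by at least 1.5-fold between genotypes in both conditions but in opposite directions. The difference between the conditions was not tested, since each group has 1 pooled value. AT1G14250, a nucleoside phosphatase family gene, had a log2 ratio of −0.79 without ABA and 1.23 with ABA, at 5.05 FPKM in untreated *aph-1* and 8.83 FPKM in untreated wild type and at 10.2 and 4.28 FPKM in *aph-1* and wild type with ABA. The other 5 such genes were each listed at 0 in at least 1 group. AT5G65609 had 5.61 without ABA and −5.86 with ABA, and AT4G26290 had 3.75 and −2.23. AT3G45180 had −5.47 and 4.95. Among genes of the chloroplast genome, ATCG00070 had −6.95 and 7.80, and ATCG00050 had −3.98 and 3.08.

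Of 68 lists, 28 had medians of opposite sign without and with ABA. In 3 of these lists both medians were at least 0.1 from 0. The *JAZ* repressors had −0.24 without ABA and 0.15 with ABA, the root hair genes −0.21 and 0.23, and the aquaporins, the water channels of the cell membranes, −0.22 and 0.10. Of the 26 aquaporins, 19 were lower in untreated *aph-1* and 10 were lower with ABA, where 56.5% and 52.3% of all compared genes were lower.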

How the results depend on the processing

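No paired analysis was possible because the table holds 1 pooled value per group and its columns carry no replicate number. For the same reason the fits without each replicate were not run.

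The counts depended on the filter and the added value. In the order of 2-fold higher, 2-fold lower, 1.5-fold higher and 1.5-fold lower genes in untreated *aph-1*, the main counts were 41, 167, 278 and 683. With 1 FPKM added they were 22, 95, 137 and 402, without a filter 154, 378, 634 and 1292, and with at least 5 FPKM 10, 71, 158 and 334. With a mean of at least 1 FPKM, 25 genes were 2-fold higher. At 3-fold, 20 were higher and 77 lower. With ABA, 132 genes were 1.5-fold higher and 89 lower with 1 FPKM added, 609 and 618 without a filter, and 134 and 94 with at least 5 FPKM.

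Among genes not responding to ABA, 77 were 1.5-fold higher and 95 lower with 1 FPKM added, 341 and 407 without a filter, 93 and 80 with at least 5 FPKM, 85 and 79 with a response limit of 0.25, and 283 and 97 with all groups scaled to the same sum. Centring on the median gave 228 higher and 122 lower. Scaling to the same sum gave 537 genes 1.5-fold higher and 464 lower among all. The length correction, chosen after seeing the data, gave 49 genes 2-fold higher and 109 lower, 353 genes 1.5-fold higher and 323 lower, and 177 higher and 59 lower among those not responding.

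The median of the 67 most induced genes was −1.24 with 1 FPKM added, −1.38 without a filter, −2.06 with at least 5 FPKM, −1.60 after the length correction, −0.18 after the 1% subtraction and −1.63 with classes from *aph-1* alone. The 1% subtraction turned the clade A phosphatases to 0.11. It takes off about as much as the gap in the 67 most induced genes, a median of 1.11%, so it is no check of strongly induced genes. The length correction turned histones to 0.062, *SAUR* genes to 0.056, arabinogalactan and extensin-like proteins to 0.031, AP2/ERF factors to 0.0031, lipid-transfer proteins to 0.032, guard cell genes to 0.048, NLR receptors to −0.0073 and ABC transporters to −0.049. Beyond these constructions the causes were not tested.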

Other observations

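Other lists gave the following values in *aph-1* relative to the wild type. Genes of the Casparian strip and of suberin, the barriers of the root endodermis, were lower for 17 of 19 members in untreated *aph-1* (median log2 ratio −0.24). Relative to genes of like length the median was −0.19, and 12 of the 19 were lower. The median log2 response of this list to ABA was 1.84, and all genes raised by 1 to 3 had an untreated median of −0.19. With ABA, 13 of the 19 were lower, with a median of −0.19, where 52.3% of all compared genes were lower. Class III peroxidases, enzymes of the cell wall, were lower for 47 of 57 members in untreated *aph-1*, 8 of them at least 1.5-fold, with a median of −0.19, and −0.08 relative to genes of like length. Of all genes, 56.5% were lower and 3.45% at least 1.5-fold lower. With ABA their median was 0.10. Proteasome genes were divided, with 19 of 44 higher in untreated *aph-1*, a share near the 43.5% of all genes. Their median was −0.05, equal to that of all genes compared to this precision.

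Genes of indole glucosinolates and camalexin, defence compounds made from tryptophan, were near level in untreated seedlings, with 9 of 16 higher in *aph-1* and a median of 0.01. With ABA, 15 of the 16 were higher, with a median of 0.47. Without and with ABA, 43.5% and 47.5% of all compared genes were higher. Genes of iron deficiency had a median of −0.06 over 16 members in untreated *aph-1* and 0.32 with ABA, where 13 were higher. Whether these differences depended on ABA was not tested.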
